A study of Drosophila melanogaster with 6 samples.

Results

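The genes described here are 6 alpha and beta tubulin genes of Drosophila melanogaster, alphaTub84B, alphaTub84D, alphaTub85E, betaTub56D, betaTub60D and betaTub97EF, chosen by name out of 14240 genes in the deposited table. Each gene's level is the sum over its transcripts, 9 of 30828 in the table, with a blank cell taken as 0. RNA came from the carcass of early L3 larvae, dissected free of the central nervous system, and was captured on streptavidin beads after biotinylation of the tagged RNA. There were 3 sample types with 2 biological replicates each. In ref-RNA, larvae carrying UAS-CD:UPRT without any Gal4 were fed 5-ethynyluridine (5EUd) for 12 hours, which tags RNA in all carcass cells. In EC-RNA, larvae carrying the Gal4 driver 109(2)80 together with UAS-CD:UPRT were fed 5-ethynylcytosine (EC) for 12 hours, so that tagging depends on the enzyme fusion CD:UPRT in multidendritic (md) sensory neurons, the cells in which this driver is active in the carcass. In mock-RNA, UAS-CD:UPRT larvae were fed neither compound and their RNA went through the same purification. All 3 sample types carried UAS-CD:UPRT, and each replicate was a pool of carcasses, so that fewer cells of a type and less RNA per cell cannot be told apart.

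Alpha and beta tubulin pair into the dimers from which microtubules are built, the tracks along which axons and dendrites carry cargo and the fibres of the mitotic spindle. A fly has several genes for each subunit. Some are used in nearly every cell, while others are restricted to tissues such as muscle, sensory organs or the testis.

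Levels are in TPM, transcript abundances scaled by length and to a fixed total per library, so that genes can be set side by side within a library. The 3 sample types differed widely in depth. Counting whole reads back from the TPM values gave 47803608 and 56446347 reads in the ref-RNA libraries, 2650138 and 7650130 in EC-RNA and 125346 and 104872 in mock-RNA. At a transcript length of 1700 bases, 1 read was worth 0.0262 and 0.0222 TPM in ref-RNA, 0.373 and 0.137 TPM in EC-RNA, and 7.74 and 14.0 TPM in mock-RNA. Among genes averaging at least 10 TPM, replicates lay within 2-fold of each other for 86.8% of 5450 genes in ref-RNA, 15.1% of 2559 in EC-RNA and 38.0% of 1037 in mock-RNA. The 2 EC-RNA libraries also differed in md neuron markers. The summed level of the 14 markers listed was 3.19 TPM in replicate 1 and 228 TPM in replicate 2, against 168 and 153 TPM in ref-RNA and 14.4 and 23.3 TPM in mock-RNA. Single markers differed. The channel gene ppk was at 0 and 0.0910 TPM in the EC-RNA libraries, against 6.79 and 4.80 TPM in ref-RNA. Piezo and ab were the most abundant of the list in ref-RNA. Piezo stood at 0.806 and 55.9 TPM in EC-RNA, against 58.4 and 55.4 TPM in ref-RNA. For ab the levels were 1.24 and 49.8 TPM in EC-RNA, against 40.7 and 39.8 TPM in ref-RNA.

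alphaTub84B (FBgn0003884, 3R:7086599-7088839 in the BDGP6.54 annotation, plus strand) is the alpha tubulin used most widely across fly tissues. It was the most abundant of the 6 genes in ref-RNA, at 773 and 747 TPM in replicates 1 and 2. EC-RNA held 387 and 62.5 TPM, and mock-RNA 374 and 475 TPM. Both EC-RNA and both mock-RNA libraries lay below both ref-RNA libraries, and EC-RNA overlapped mock-RNA. The EC-RNA replicates differed by 6.20-fold for this gene, against 1.04-fold in ref-RNA and 1.27-fold in mock-RNA.

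alphaTub84D (FBgn0003885, 3R:7530753-7532732, plus strand) encodes an alpha tubulin nearly identical to that of alphaTub84B and is also used widely. Its levels were 39.2 and 24.7 TPM in ref-RNA, 103 and 111 TPM in EC-RNA, and 39.2 and 35.5 TPM in mock-RNA. It was the only one of the 6 genes whose EC-RNA libraries both lay above all the others. The mock-RNA values rested on 6 and 3 reads, which allow 14.4 to 85.2 TPM and 7.32 to 104 TPM (exact Poisson 95% limits, counting error only). Reads shared between 2 genes so alike in coding sequence may be split between them by the quantification. Their summed level depends on that split only through their unlike transcript lengths, 1752 and 1980 bases. It was 812 and 771 TPM in ref-RNA, 491 and 173 TPM in EC-RNA, and 413 and 511 TPM in mock-RNA.

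alphaTub85E (FBgn0003886, 3R:9731221-9733250, minus strand) is an alpha tubulin known from chordotonal organs, muscle attachment sites and the somatic cells of the testis. The ref-RNA libraries held 32.6 and 26.8 TPM and the mock-RNA libraries 188 and 201 TPM. In EC-RNA it was at 0.412 TPM in replicate 1 and at 0 in replicate 2. The 3 sample types did not overlap, with mock-RNA highest and EC-RNA lowest. The 2 EC-RNA libraries held 1 read of this gene between them, and the mock-RNA libraries 22 and 13 reads.

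betaTub56D (FBgn0284243, 2R:19447319-19451600, minus strand) is the widely used beta tubulin. Its levels were 463 and 371 TPM in ref-RNA, 185 and 548 TPM in EC-RNA, and 349 and 693 TPM in mock-RNA. These ranges overlapped between all pairs of sample types, and the order of the group means did not exceed their spread. The EC-RNA replicates differed in the opposite direction from those of alphaTub84B, replicate 2 being the higher.

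betaTub60D (2R:24305881-24313099, plus strand, listed as FBgn0003888 in the table and matched to the annotation by symbol) is known from developing muscle and chordotonal organs. It was near the bottom of the 6 genes in ref-RNA, at 10.8 and 13.8 TPM. In EC-RNA it stood at 1.69 and 0.0889 TPM, from 7 reads and 1 read. In mock-RNA it reached 361 and 428 TPM, from 72 and 47 reads. As with alphaTub85E, the sample types did not overlap and ran from mock-RNA through ref-RNA to EC-RNA. It ranked 5358 and 4502 among genes in the ref-RNA libraries and 106 and 94 in the mock-RNA libraries.

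betaTub97EF (FBgn0003890, 3R:27967008-27988384, minus strand) is a beta tubulin of the gut and some other tissues. The ref-RNA libraries held 12.6 and 10.7 TPM of it, and both EC-RNA libraries were at 0. In mock-RNA it stood at 7.74 and 14.9 TPM, which correspond to 1.00 and 1.06 reads. The mock-RNA level of this gene is therefore set by a single read in each library, with limits of 0.196 to 43.1 TPM and 0.456 to 79.7 TPM.

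**Figure D1:**
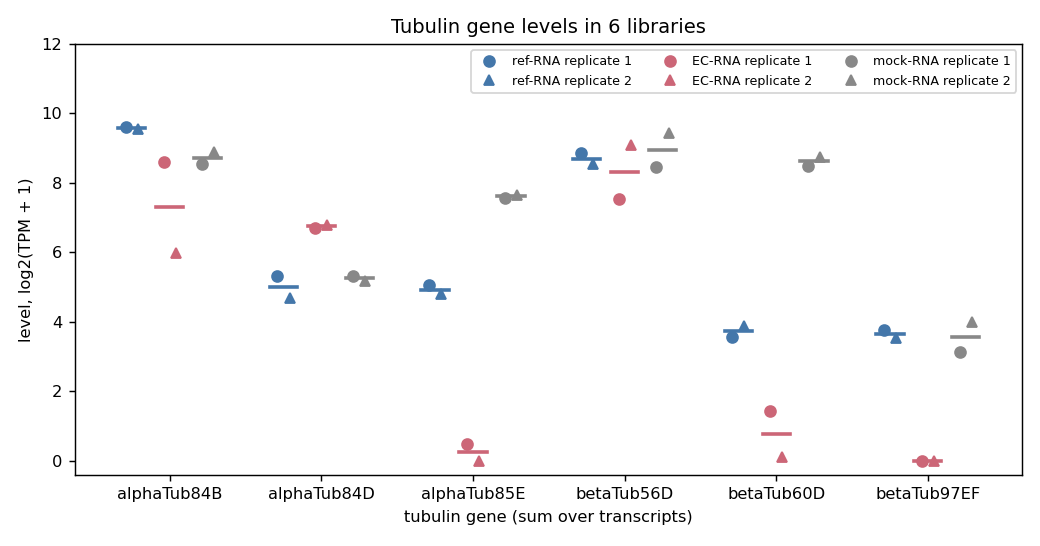
Level of each tubulin gene in log2(TPM + 1) (y axis) for the 6 genes (x axis), with 1 point per library, circles for replicate 1, triangles for replicate 2 and a line at the mean of the 2 log values. alphaTub85E and betaTub60D were highest in mock-RNA and lowest in EC-RNA without overlap, and alphaTub84D was highest in EC-RNA.

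**Figure D2:**
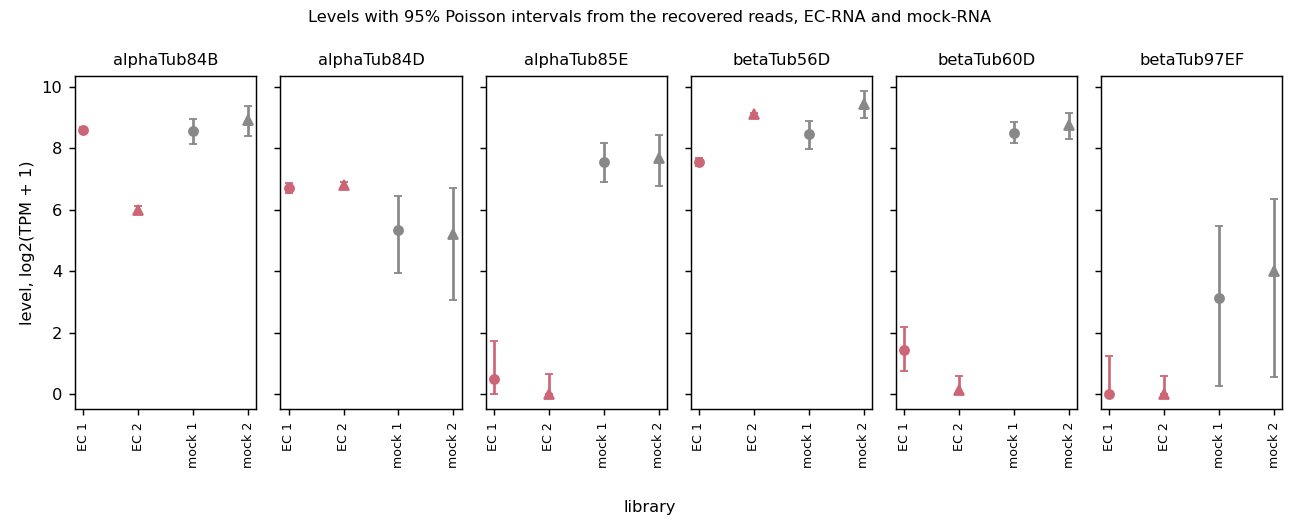
Level in log2(TPM + 1) (y axis) of each gene in the 4 EC-RNA and mock-RNA libraries (x axis), with exact Poisson 95% limits from the recovered reads as bars. The limits of alphaTub85E and betaTub60D in mock-RNA stay far above those in EC-RNA, while the mock-RNA limits of betaTub97EF span 0.196 to 43.1 TPM and 0.456 to 79.7 TPM.

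The 6 genes together summed to 1331 and 1194 TPM in ref-RNA, 678 and 722 TPM in EC-RNA, and 1320 and 1847 TPM in mock-RNA. Both EC-RNA sums lay below all the others, and ref-RNA and mock-RNA overlapped. Median-of-ratios scaling turned that order, with a mean sum of 994 TPM in EC-RNA against 408 TPM in ref-RNA. An exact two-sided permutation test gave p = 0.333 for EC-RNA against ref-RNA and against mock-RNA, which is the smallest value that 2 libraries against 2 can give.

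The make-up of that sum differed more than its size. alphaTub84B and betaTub56D together made up nearly all of it in ref-RNA, where alphaTub84B took 58.1% and 62.6% and betaTub56D 34.8% and 31.1%. alphaTub85E and betaTub60D together took 3.26% and 3.40% of the sum in ref-RNA, 0.311% and 0.0123% in EC-RNA, and 41.6% and 34.0% in mock-RNA. alphaTub84D took 15.2% and 15.3% in EC-RNA, against 2.95% and 2.07% in ref-RNA and 2.97% and 1.92% in mock-RNA. This share was close in the EC-RNA replicates, although their alphaTub84B shares were 57.2% and 8.65%. The 3 alpha genes made up 63.5% and 66.9% of the sum in ref-RNA, 72.5% and 24.0% in EC-RNA, and 45.6% and 38.5% in mock-RNA. The EC-RNA shares thus lay on either side of those of both other sample types. The exact permutation p was 1.00 against each, but 2 libraries against 2 cannot give less than 0.333, so this test could not have shown a difference.

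**Figure D3:**
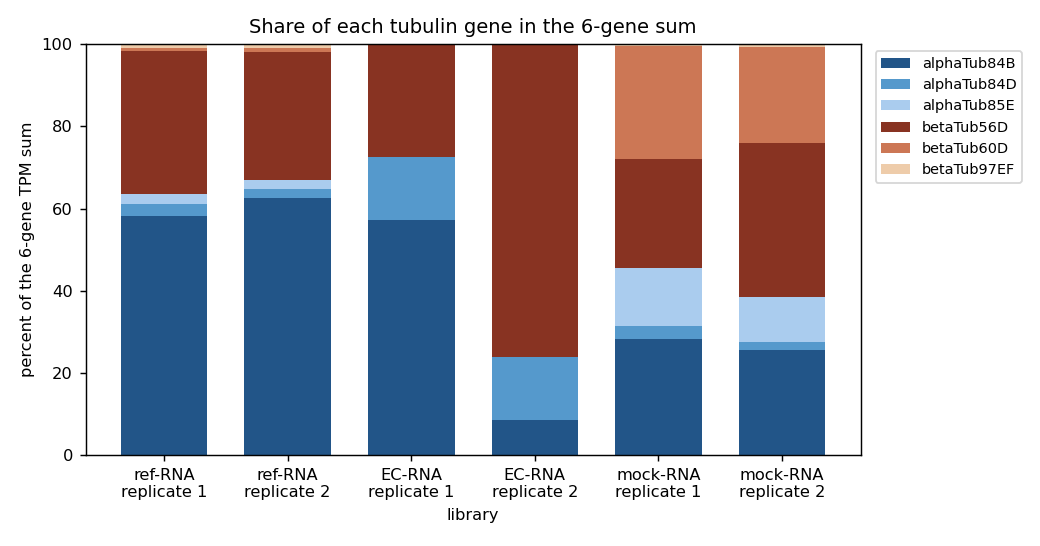
Percent of the 6-gene TPM sum (y axis) taken by each tubulin gene in each library (x axis), stacked to 100. alphaTub85E and betaTub60D take 41.6% and 34.0% together in mock-RNA and at most 3.40% elsewhere.

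EC-RNA against ref-RNA asks which transcripts are more or less represented in RNA tagged through the md neuron driver than in RNA tagged in all carcass cells. Of the 6 tubulin genes, 3 were called lower and none higher, at an adjusted p below 0.05 and a change of at least 2-fold. Among the 9064 genes of the table that were tested, 56.0% fell and 0.199% rose by the same rule, so that the share of tubulin genes called lower was close to that of genes at large. The median log2 fold change was -2.61 over the 6 genes and -2.59 over all genes. Fold changes are on the log2(TPM + 1) scale, which understates the change of low genes, and adjusted p-values are from limma with Benjamini-Hochberg adjustment over all genes tested.

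alphaTub85E was lower in EC-RNA by a log2 fold change of -4.68 (SE 0.33, adjusted p = 0.00290). The ratio of ref-RNA to EC-RNA means was 144, with a counting interval of 25.9 to 5694 from the 1 EC-RNA read. betaTub97EF was also called lower (adjusted p = 0.00286). With both EC-RNA libraries at 0 it was at least 10.4-fold lower than in ref-RNA, taking 3 reads per library as the floor. betaTub60D was lower by a log2 fold change of -2.95 (SE 0.55, adjusted p = 0.0195), and the ratio of means was 13.8, with a counting interval of 7.01 to 32.0. That interval pools the 7 reads and 1 read of the EC-RNA libraries. It leaves out the 19.1-fold difference between them and so understates the uncertainty. Relative to the median of all genes, alphaTub85E stood at -2.09, betaTub60D at -0.36 and betaTub97EF at -1.07 on the log2 scale. betaTub60D was above that median with a filter at 5 TPM (0.40), at a pseudocount of 0.1 (0.56), under median-of-ratios scaling (0.52) and quantile normalization (1.17), and without ref-RNA replicate 2 (0.14) or EC-RNA replicate 2 (0.65).

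The call of betaTub60D was the least stable of these. It was lost without ref-RNA replicate 1 (adjusted p = 0.159) or replicate 2 (adjusted p = 0.185), and limma voom on the recovered reads gave an adjusted p of 0.0543. Under quantile normalization, which also removed the calls of alphaTub85E and betaTub97EF and left no gene of the table called, its log2 fold change became 1.25. Under median-of-ratios scaling only betaTub97EF remained called of the 6.

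The other 3 genes did not pass. alphaTub84D had a log2 fold change of 1.75 (SE 1.05, adjusted p = 0.276), with a ratio of means of 3.35. It was above the median of all genes by 4.34, and both EC-RNA libraries lay above both ref-RNA libraries, which held for 3.16% of genes tested. Without EC-RNA replicate 1 it was called higher (log2 fold change 1.80, adjusted p = 0.00957), as it was without replicate 2 (1.70, adjusted p = 0.00846). Those fits called 969 and 695 genes higher, against 18 with all 4 libraries, since they take the lone EC-RNA library to vary like the ref-RNA pair.

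alphaTub84B had a log2 fold change of -2.28 (SE 1.18, adjusted p = 0.212). This lay 0.32 above the median of all genes, 2.11 above it under median-of-ratios scaling, 2.28 above it with voom and at -2.96 relative to it under quantile normalization. It was called lower without EC-RNA replicate 1 (log2 fold change -3.58, adjusted p = 0.000364), the library in which it was higher. betaTub56D had a log2 fold change of -0.38 (SE 0.86, adjusted p = 0.759). It was called lower without EC-RNA replicate 2 (-1.16, adjusted p = 0.00794) and was positive without replicate 1 (0.40, adjusted p = 0.215). Median-of-ratios scaling turned both alphaTub84B (0.89) and betaTub56D (2.79) positive, without a call. With 4 genes, both EC-RNA libraries lay below both ref-RNA libraries, as they did for 69.1% of genes tested. The sum of alphaTub84B and alphaTub84D, added after the data were seen, had a log2 fold change of -1.44 (SE 0.76, adjusted p = 0.220).

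**Figure D4:**
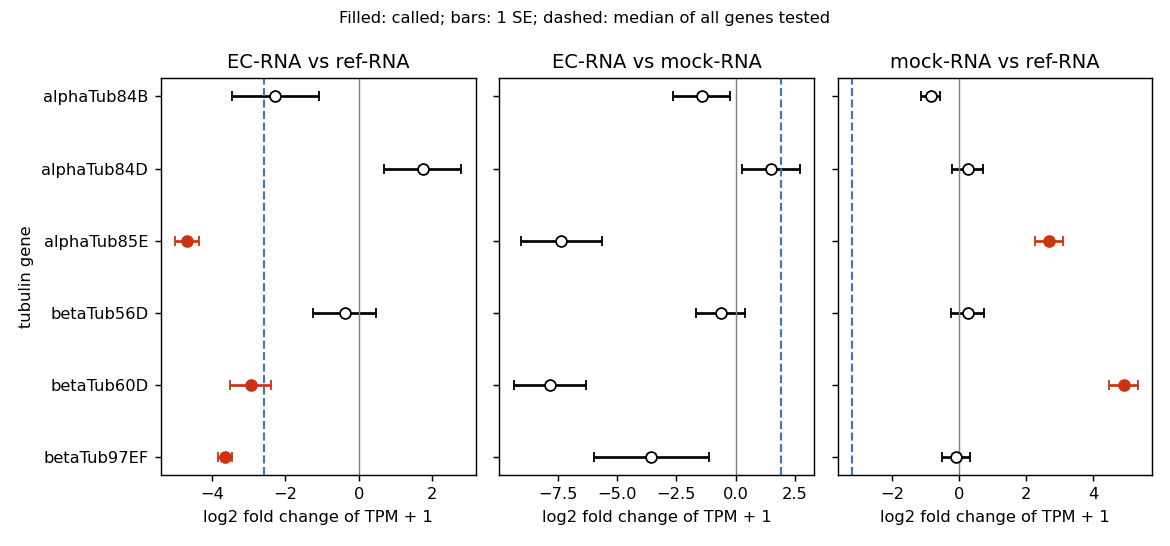
Log2 fold change of TPM + 1 (x axis) of the 6 genes (y axis) in the 3 comparisons, with bars of 1 SE, filled points for genes called and a dashed line at the median of all genes tested. alphaTub85E and betaTub60D are called lower in EC-RNA and higher in mock-RNA against ref-RNA; the betaTub97EF points against EC-RNA depend on the pseudocount, since EC-RNA was at 0.

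Single transcripts were tested in the same way between EC-RNA and ref-RNA. Of the 9 tubulin transcripts, 8 passed the filter on low values and 2 were called lower and none higher, against 44.5% and 0.592% of 14534 transcripts tested. These were the only transcript of alphaTub85E (FBtr0082087, adjusted p = 0.00675) and the main one of betaTub60D (FBtr0343443, log2 fold change -2.82, adjusted p = 0.0282). FBtr0343443 took 85.7% and 85.5% of the betaTub60D level in ref-RNA and 75.3% and 82.1% in mock-RNA. betaTub97EF was not called at either of its transcripts (adjusted p = 0.436 for both). ref-RNA replicate 1 listed only FBtr0300611, at 12.6 TPM, and replicate 2 only FBtr0334906, at 10.7 TPM, while both mock-RNA libraries listed them as equal. Both have 7 exons and 1701 bases, so that the gene sum is the quantity to read for this gene. For betaTub56D, FBtr0086537 appeared only in ref-RNA replicate 2, at 8.39 TPM, and FBtr0086536 carried the rest.

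The comparison of mock-RNA with ref-RNA asks which transcripts are more or less represented in RNA recovered without any tag. Levels are relative to the total of each library. betaTub60D was higher in mock-RNA by a log2 fold change of 4.90 (SE 0.44, adjusted p = 0.00389), with a ratio of means of 32.0 and a counting interval of 26.5 to 38.3. alphaTub85E was higher by 2.68 (SE 0.42, adjusted p = 0.0145), with a ratio of 6.56 and a counting interval of 4.57 to 9.12. These 2 of 6 genes were called higher, against 0.731% of 9025 genes tested. None of the 6 was called lower, against 67.1% of all genes. Only 7.42% of genes were above 0 in both of the shallow mock-RNA libraries, the 6 tubulin genes among them. The part of low depth in the share called lower was not tested. For betaTub60D and alphaTub85E, both mock-RNA libraries lay above both ref-RNA libraries, which held for 1.39% of genes.

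Both calls were sensitive to the treatment of the libraries. Without ref-RNA replicate 1 the adjusted p was 0.0586 for betaTub60D and 0.139 for alphaTub85E, and without ref-RNA replicate 2 it was 0.0898 and 0.208. With limma voom on the recovered reads, chosen after the data were seen, neither was called. The adjusted p of betaTub60D lay at the threshold, at 0.0502, and a second way of counting the reads gave 0.04999, so that this call turns on a detail of the recovery. For alphaTub85E the values were 0.119 and 0.117. The voom fit called 5 genes of the whole table higher and 27 lower, against 66 and 6054 on the TPM values.

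The other 4 genes did not pass between mock-RNA and ref-RNA. alphaTub84B had a log2 fold change of -0.85 (SE 0.29, adjusted p = 0.0798), with both mock-RNA libraries below both ref-RNA libraries, as for 86.3% of genes. It was called lower without mock-RNA replicate 2 (-1.02, adjusted p = 0.00532) and called higher under median-of-ratios scaling (1.62, adjusted p = 0.0111). alphaTub84D (0.25, adjusted p = 0.633), betaTub56D (0.25, adjusted p = 0.672) and betaTub97EF (-0.10, adjusted p = 0.845) overlapped between the sample types. The ratio of means was 1.17 for alphaTub84D, with a counting interval of 0.534 to 2.22, and 0.972 for betaTub97EF, with 0.118 to 3.51, and for both genes the interval includes a change of 2-fold. The median log2 fold change was 0.25 over the 6 genes and -3.19 over all genes, and each of the 6 lay above that median, by 2.35 for alphaTub84B and up to 8.09 for betaTub60D. With voom the median of all genes was -1.12 and alphaTub84B lay 0.34 above it, as it lay 0.25 above at a pseudocount of 10 and 0.28 above under quantile normalization. Only 1056 genes, 7.42% of the table, were above 0 in both mock-RNA libraries, and all 6 tubulin genes were among them.

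**Figure D5:**
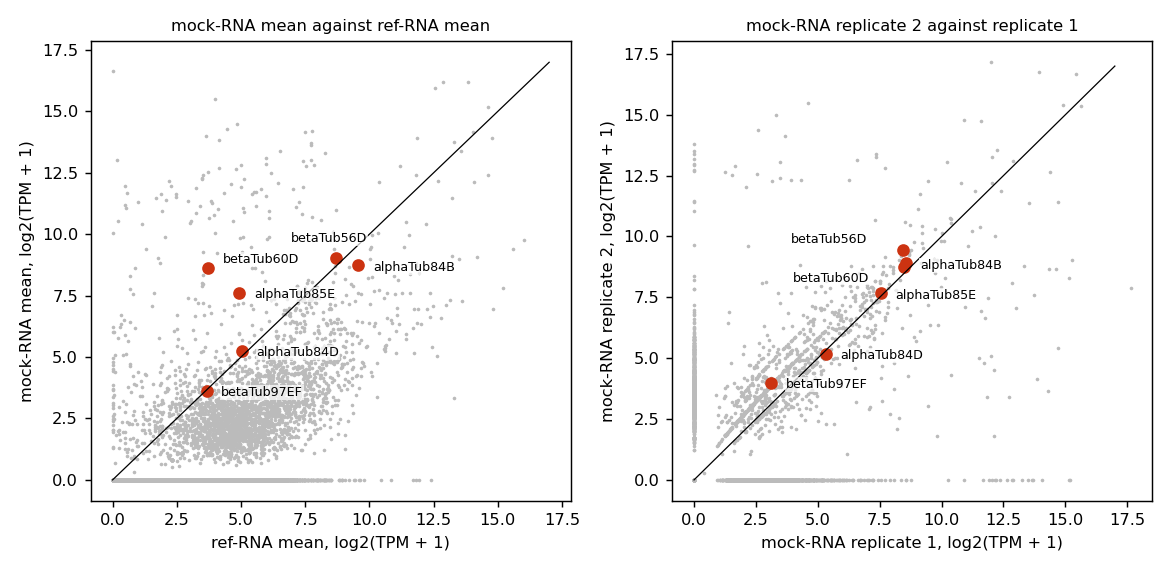
Mean mock-RNA level against mean ref-RNA level (left) and mock-RNA replicate 2 against replicate 1 (right), in log2(TPM + 1), with all genes in grey, the 6 tubulin genes in red and a line of equality. betaTub60D and alphaTub85E lie above the line on the left, and all 6 genes lie near it on the right.

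EC-RNA against mock-RNA asks which transcripts are more or less represented than in the untagged background. No tubulin gene was called, while 0.342% of the 4096 genes tested were called higher (14 genes) and 0.0244% lower (1 gene). At an unadjusted p below 0.05, limma gave 478 genes higher and 90 lower, and voom called none after adjustment. Of the tubulin genes, alphaTub85E and betaTub60D had an unadjusted p below 0.05 (0.00377 and 0.00142). betaTub60D had a log2 fold change of -7.85 (SE 1.52, adjusted p = 0.112) and alphaTub85E one of -7.36 (SE 1.71, adjusted p = 0.131), an order that turned at a pseudocount of 0.1 (-9.40 and -9.75). The ratio of mock-RNA to EC-RNA means was 443 for betaTub60D, with a counting interval of 225 to 1025, and 945 for alphaTub85E, with 170 to 37336. Both genes were called lower without EC-RNA replicate 1 (adjusted p = 0.0274 for betaTub60D and 0.0198 for alphaTub85E) and without EC-RNA replicate 2 (0.0400 and 0.0270). Those fits take the lone EC-RNA library to vary like the mock-RNA pair, and called 940 genes higher and 60 lower in the first and 509 and 39 in the second.

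With 3 genes, alphaTub85E, betaTub60D and betaTub97EF, both EC-RNA libraries lay below both mock-RNA libraries, against 8.57% of genes tested. For betaTub97EF no fold is given, because both sample types were under the floor of 3 reads. alphaTub84D lay above in both EC-RNA libraries, as did 33.9% of genes, with a log2 fold change of 1.5 (SE 1.21, adjusted p = 0.589), and quantile normalization turned it negative (-1.59). alphaTub84B (-1.43, SE 1.2) and betaTub56D (-0.63, SE 1.04) overlapped between the sample types, and betaTub56D was positive without EC-RNA replicate 1 (0.16).

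Patterns over the 6 libraries were compared by the Euclidean distance between log2(TPM + 1) profiles, each centred on its own mean, among 3732 other genes averaging at least 10 TPM. This is a description over 6 libraries of 3 sample types. alphaTub85E and betaTub60D were 2.44 apart, and only 6 of those genes were nearer to alphaTub85E than betaTub60D was. The nearest genes to alphaTub85E were Taldo, which encodes transaldolase (distance 1.10), and RpL41, a ribosomal protein gene (1.41). Taldo stood at 20.9 and 29.6 TPM in ref-RNA, 1.22 and 0 TPM in EC-RNA, and 139 and 138 TPM in mock-RNA. Those nearest to betaTub60D were baz, a cell polarity gene (1.95), and stj, a calcium channel subunit gene (2.44).

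alphaTub84D was nearest to Mitf, a transcription factor gene (0.814), and Act5C, a cytoplasmic actin gene (1.39). Mitf stood at 123 and 88.3 TPM in ref-RNA, 222 and 202 TPM in EC-RNA, and 80.6 and 84.3 TPM in mock-RNA. alphaTub84B and alphaTub84D were 4.61 apart, with 638 genes nearer to alphaTub84B. The genes nearest to alphaTub84B were Nopp140, a nucleolar protein gene (1.49), and eIF3l, a translation initiation factor gene (1.66). betaTub56D was nearest to RpS3 (1.08) and to sls, which encodes a titin-like muscle protein (1.22), and betaTub97EF to CG11852 (0.776) and bond (0.936).

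Among the 6 other tubulin genes listed, betaTub85D, the testis beta tubulin, was called higher in mock-RNA than in ref-RNA. It stood at 0.0240 and 0.992 TPM in ref-RNA, 0 in both EC-RNA libraries, and 35.4 and 64.2 TPM in mock-RNA. Of the 8 germline and gonad markers found, betaTub85D and nos, a germline gene, were above 0 in mock-RNA, nos at 147 TPM in replicate 1 and 0 in replicate 2, against 0 in both ref-RNA libraries. The other 6 were at 0 in both mock-RNA libraries and at no more than 2.03 TPM in ref-RNA, a level not detectable at the depth of mock-RNA. gammaTub23C, the gamma tubulin of somatic cells, was called lower in EC-RNA than in ref-RNA, from 10.2 and 12.8 TPM to 0.339 and 0 TPM. CG32396, a further tubulin gene, was also called lower, from 6.65 and 3.05 TPM in ref-RNA to 0. Both were at 0 in mock-RNA too and called lower there, but 1 mock-RNA read is worth 7.74 and 14.0 TPM, so that their ref-RNA levels lay near or below the worth of a single read and those calls cannot be told apart from a lack of depth.

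Genes that act on tubulin were called lower in EC-RNA or not called, against 56.0% of all genes called lower and 0.199% called higher. Of the gamma-tubulin ring complex, which nucleates microtubules, 3 of 6 genes tested were lower in EC-RNA than in ref-RNA. Of the tubulin folding genes, such as the chaperonin subunit genes CCT2 and CCT7, 8 of 19 were lower, with CCT7 falling from 58.0 and 71.3 TPM to 0.635 and 0.350 TPM (adjusted p = 0.00329). Of the tubulin modification genes, 2 of 3 were lower, the deacetylase genes Sirt2 and HDAC6. Of the genes of microtubule dynamics and severing, 8 of 20 were lower. None in these lists was called higher, and the median log2 fold changes were -2.0, -3.15, -3.34 and -1.90, against -2.59 over all genes. The folding genes together summed to 1513 and 1170 TPM in EC-RNA, against 909 and 839 TPM in ref-RNA, while the sums of the other lists overlapped. Against mock-RNA none of these genes was called.

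Single genes of these lists differed in how closely their EC-RNA replicates lay. Eb1, a microtubule plus end protein gene, reached 798 and 143 TPM in EC-RNA, against 250 and 253 TPM in ref-RNA, and was at 0 in both mock-RNA libraries. CLIP-190, another plus end protein gene, measured 186 and 231 TPM in EC-RNA, 123 and 120 TPM in ref-RNA, and 2.29 and 8.55 TPM in mock-RNA. Map205, a microtubule-binding protein gene, measured 110 and 132 TPM in EC-RNA, against 212 and 189 TPM in ref-RNA. None of the 3 was called between EC-RNA and ref-RNA. Between mock-RNA and ref-RNA, 3 of 6 ring complex genes, 13 of 19 folding genes, 2 of 3 modification genes and 14 of 20 dynamics genes were called lower and none higher, against 67.1% and 0.731% of all genes. The 3 most abundant ring complex genes averaged 8.73, 8.46 and 6.76 TPM in ref-RNA. At 1700 bases, 1 mock-RNA read is worth 7.74 and 14.0 TPM, so such levels are hardly detectable there. The part of low depth in these counts was not tested.

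Some markers of other cells differed between the sample types as well. Neuron markers summed to 329 and 287 TPM in ref-RNA, 239 and 915 TPM in EC-RNA, and 241 and 165 TPM in mock-RNA. Between EC-RNA and ref-RNA, 3 of 12 tested were called lower and none higher, against 56.0% and 0.199% of all genes. Their median log2 fold change was -0.18, against -2.59 over all genes. In EC-RNA, elav stood at 32.3 and 331 TPM and Syx1A at 176 and 289 TPM. Of 10 neuron markers tested between mock-RNA and ref-RNA, 2 were called higher and 3 lower, against 0.731% and 67.1% of all genes. The markers' median on the log2 scale was -0.59, against -3.19 over all genes. Syt1 and brp were the higher ones, Syt1 at 152 and 53.8 TPM against 9.05 and 12.8 TPM, while Syx1A was called lower, at 10.6 and 0 TPM against 184 and 168 TPM, and elav was at 2.26 and 0 TPM in mock-RNA. Chordotonal organ markers, which mark cells known for alphaTub85E and betaTub60D, summed to 7.32 and 9.42 TPM in ref-RNA and to 0.241 and 79.4 TPM in EC-RNA. Of the sum in EC-RNA replicate 2, the gene Rfx alone made up 79.4 TPM, against 0.153 TPM in replicate 1. The chordotonal markers were at 0 in both mock-RNA libraries. A sum of the ref-RNA size is about the worth of 1 read there and could not be detected. Of 12 epidermis and cuticle markers, 5 were called lower and 1 higher between mock-RNA and ref-RNA, against 67.1% and 0.731% of all genes. The higher one was the larval cuticle gene Lcp3, at 37.0 and 67.1 TPM against 7.42 and 2.22 TPM. Lcp1, another larval cuticle gene, was among those called lower, at 67.6 and 123 TPM against 7343 and 6802 TPM. The 12 markers summed to 18836 and 15154 TPM in ref-RNA, 26511 and 39979 TPM in EC-RNA, and 5005 and 148035 TPM in mock-RNA. The cuticle gene Lcp4 made up 146063 TPM of the sum in mock-RNA replicate 2. Muscle markers summed to 121111 and 109736 TPM in ref-RNA, 62443 and 61860 TPM in EC-RNA, and 18498 and 38052 TPM in mock-RNA, and 5 of 17 were called lower in EC-RNA and 12 of 17 in mock-RNA, against 56.0% and 67.1% of all genes. Tendon cell markers summed to 886 and 736 TPM in ref-RNA, 987 and 955 TPM in EC-RNA, and 35.4 and 41.2 TPM in mock-RNA. The gene how alone made up 836 and 782 TPM of the EC-RNA sums. In contrast, mys stood at 6.27 and 0.643 TPM in EC-RNA, against 180 and 174 TPM in ref-RNA. Of 8 tendon markers tested, 3 were called lower in EC-RNA and 5 in mock-RNA, against 56.0% and 67.1% of all genes. None was called higher. The part of these cell types in the tubulin levels was not tested.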

How the data were processed

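Carcass RNA was measured in 6 libraries. According to the labels and the study's methods, the authors trimmed reads with Trimmomatic and quantified transcripts on BDGP6 with kallisto (versions not given in the sources used here) and deposited TPM values per transcript and library. Blank cells were taken as 0. The members and gene lists were chosen with earlier results of these data known.

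TPM values were summed per gene. log2(TPM + 1) of genes averaging at least 1 TPM in the 4 libraries compared was tested with limma 3.58.1 (R 4.3.3; empirical Bayes, trended spread, Benjamini-Hochberg adjustment over all genes tested), with calls at an adjusted p below 0.05 and at least 2-fold. The p-values rest on 2 libraries per sample type. Named genes were all members and their transcripts, the 2 genes nearest in pattern to each, and the most abundant genes in ref-RNA of each list. Genes beyond this rule were chosen after their values were seen: betaTub85D, Syt1, brp, ppk, Lcp3, nos and the germline markers at 0. Of the listed symbols, 15 of 21 for tubulin modification, 8 of 27 for folding and 3 of 26 for dynamics were not matched.

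Reads were recovered because TPM multiplied by the effective transcript length is a whole multiple of 1 value per library. Of values under 10.5 reads, 91.3% to 95.7% came out whole within 0.05 reads. Transcript lengths were those of the BDGP6.54 annotation. Read recovery, voom on those reads and the sum of alphaTub84B and alphaTub84D were chosen after the data were seen. Intervals cover counting error only. Those of ratios pool the reads of both libraries of the sample type with fewer reads and leave out the difference between replicates.

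Both procedures were tested on simulated data. An earlier form of the read recovery failed on deep libraries, where the value found stood for several reads; a step that divides it until low values are whole was added, after which every simulated depth was recovered. For limma, the simulated spread came from the ref-RNA replicates, which lay closer together than those of EC-RNA or mock-RNA. The simulation therefore does not stand for the spread of those sample types. Known changes were called, at least in part, when the simulated spread followed its trend with level. They were fitted at the right size but not called when each gene kept its own replicate spread, a case met first and kept, so that a gene that did not pass is weak evidence of no change. Alternatives covered filters, pseudocounts, scalings, the samples in the fit, the spread model, the replicate block and leaving out each library. Python 3.11.15, pandas 2.3.3, NumPy 2.4.6, SciPy 1.17.1 and matplotlib 3.10.9 were used.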

Additional observations from a re-analysis of the deposited data

How the results depend on the processing

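All values below are counts of genes or transcripts called, log2 fold changes or TPM under settings other than those of the report. The causes were not tested. Of the 6 tubulin genes, 3 were called between EC-RNA and ref-RNA, 0 under quantile normalization, 1 under median-of-ratios scaling and 2 to 5 without 1 library. Between EC-RNA and mock-RNA 0 were called, 1 under quantile normalization, 2 with all 3 sample types in one fit and 0 to 2 without 1 library. Between mock-RNA and ref-RNA 2 were called, 4 under quantile normalization, 6 under median-of-ratios scaling, 0 with voom on recovered reads, 1 with voom where the worth of a read was sought among the lowest values, and 0 to 3 without 1 library. Of the transcripts 2 were called, 1 without a filter, at pseudocounts of 0.1 and 10, without the 10 most abundant transcripts and in one fit, 0 under quantile normalization and median-of-ratios scaling, and 1 to 3 without 1 library. The replicate numbers do not pair the samples, since deviations of same-numbered libraries correlated at 0.0037, 0.0013 and 0.0105. With the number as a replicate block, 1 gene was called between EC-RNA and mock-RNA (betaTub60D), 1 between mock-RNA and ref-RNA (betaTub60D) and 1 transcript between EC-RNA and ref-RNA.

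Fold changes turned sign in EC-RNA against ref-RNA under median-of-ratios scaling for alphaTub84B (0.89) and betaTub56D (2.79), under voom for betaTub56D (0.21 with either read recovery) and under quantile normalization for betaTub60D (1.25). betaTub56D ran from -1.16 to 0.40 without 1 library. Transcripts turned sign under median-of-ratios scaling for FBtr0081639 (1.21) and FBtr0086536 (3.13) and under quantile normalization for FBtr0343443 (1.17), FBtr0086537 (0.38), FBtr0300611 (0.27) and FBtr0334906 (0.30), and FBtr0086536 ran from -1.14 to 0.42 without 1 library. In EC-RNA against mock-RNA, alphaTub84D turned to -1.59 under quantile normalization, and betaTub56D ran from -1.41 to 0.16 without 1 library. In mock-RNA against ref-RNA, alphaTub84B turned to 0.44 under quantile normalization and 1.62 under median-of-ratios scaling, alphaTub84D to -0.081 and betaTub56D to -0.094 when rescaled without mitochondrial genes, and betaTub97EF to 3.25 under quantile normalization, 2.15 under median-of-ratios scaling, 0.57 without the 10 most abundant transcripts and 0.50 under both voom fits. Without 1 library, alphaTub84D ran from -0.071 to 0.58, betaTub56D from -0.25 to 0.74 and betaTub97EF from -0.53 to 0.34.

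Over all genes, those called higher and lower between EC-RNA and ref-RNA were 18 and 5080, 115 and 2575 under median-of-ratios scaling, 53 and 2772 with voom and 0 and 0 under quantile normalization. Between mock-RNA and ref-RNA they were 66 and 6054, 157 and 4808 under median-of-ratios scaling, 129 and 511 under quantile normalization and 5 and 27 with voom. The median log2 fold change of all genes moved from -2.59 to -1.22 and 0.075 in the first, and from -3.19 to -1.95 and 0.16 in the second, under median-of-ratios scaling and quantile normalization. The mean 6-gene sum was 1835 TPM in ref-RNA, 1167 TPM in EC-RNA and 3823 TPM in mock-RNA without the 10 most abundant transcripts, 1674, 1083 and 1654 TPM without mitochondrial genes, which turned the order of mock-RNA and ref-RNA, and 408, 994 and 2971 TPM under median-of-ratios scaling, which turned the order of EC-RNA and ref-RNA. The depth of mock-RNA limits every value that rests on a few of its reads.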
